A study of Mus musculus with 6 samples.

Results

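Mitochondrial ribosomal protein genes were taken as every row of the count table whose symbol begins with Mrpl or Mrps followed by a digit, which gave 77 of 23282 rows, 48 of the large subunit (Mrpl) and 29 of the small subunit (Mrps). Each member was followed in all 6 libraries. RNA came from alveolar macrophages, the resident phagocytes of the air spaces, which were sorted from mouse lung as CD45+ CD11c+ F4/80+ SiglecF+ CD11b- cells. The Sdha-KO group held 3 libraries from mice with floxed Sdha alleles and LysM-Cre, a Cre recombinase driven by the Lyz2 locus in myeloid cells, so the deletion is not limited to alveolar macrophages. The wildtype group held 3 libraries. The labels number the libraries of each genotype 1 to 3 and give the same numbers as batch numbers, so each of 3 batches held 1 library of each genotype. The sources used here do not give age, strain, sex, the Cre status of the wildtype mice or whether a library held 1 mouse or a pool. The p-values therefore rest on differences among 6 libraries that may in part be technical.

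The mitochondrial ribosome translates the messages of the mitochondrial genome, which encode core subunits of respiratory complexes I, III and IV and of ATP synthase. Its RNAs are made in the organelle, and its proteins are encoded in the nucleus, made in the cytosol and imported. The small subunit binds the message and decodes it, and the large subunit joins amino acids and releases the chain at the inner membrane. Sdha encodes a subunit of complex II, whose subunits are all encoded in the nucleus, so complex II itself is not a product of this ribosome. The comparison asks whether loss of Sdha went with a change in the nuclear genes for this machine. Messages of the mitochondrial genome were not analysed here.

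The members share features that the symbol rule does not use. All 77 are protein-coding genes of GENCODE M21 and lie on 17 chromosomes, none of them on X or Y, with at most 10 on any 1 chromosome. In RefSeq's promoter windows (GRCm38.p6, 250 bases before to 50 after each start), 68 members had 74 windows. The letters CCGGAAG, a core bound by ETS factors, were found on either strand in 25 of these 74 windows (33.8%), against 8.86% of all 32851 windows. The NRF-1 core GCATGCGC was found in 8 member windows (10.8%, against 2.71% of all windows) and the YY1 core AAGATGGCG in 8 (10.8%, against 1.4%). The TATA letters TATAAA were found in 5 member windows (6.76%, against 13.6%). No ETS match shared bases with a YY1 match in these windows. A match describes the letters alone and shows no binding. The 24 tested members with an ETS match had a median log2 fold change of 0.16 between Sdha-KO and wildtype libraries, and the 43 tested members with a window but no match had 0.23.

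Windows are shown of Mrpl33 and Mrpl34, which had the highest mean levels of all members, of Mrpl52, which had the smallest unadjusted p, and of Mrpl35, which has a YY1 match and lay lower in all Sdha-KO libraries. They are written 5′ to 3′ on the gene's strand, with matches to the NRF-1, ETS or YY1 core on either strand in capitals. The window of Mrpl33 (chr5:31613701-31614000, plus strand) holds an NRF-1 core beside an ETS core. The window of Mrpl34 (chr8:71464676-71464975, plus strand) holds 1 ETS core, that of Mrpl52 (chr14:54426659-54426958, plus strand) holds 2 ETS cores, and that of Mrpl35 (chr6:71823735-71824034, minus strand) holds 1 YY1 core.
Mrpl33: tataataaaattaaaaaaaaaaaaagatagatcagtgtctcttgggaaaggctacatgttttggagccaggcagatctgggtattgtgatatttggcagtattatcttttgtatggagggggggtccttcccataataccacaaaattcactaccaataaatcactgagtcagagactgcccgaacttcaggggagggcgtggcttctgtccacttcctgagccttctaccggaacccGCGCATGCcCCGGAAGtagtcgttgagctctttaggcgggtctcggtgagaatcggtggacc
Mrpl34: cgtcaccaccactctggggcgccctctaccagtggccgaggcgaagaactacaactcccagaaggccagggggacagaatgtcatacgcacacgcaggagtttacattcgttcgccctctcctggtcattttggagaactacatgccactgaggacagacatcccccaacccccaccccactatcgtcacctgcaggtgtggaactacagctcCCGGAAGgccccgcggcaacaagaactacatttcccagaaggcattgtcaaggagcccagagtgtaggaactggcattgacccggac
Mrpl52: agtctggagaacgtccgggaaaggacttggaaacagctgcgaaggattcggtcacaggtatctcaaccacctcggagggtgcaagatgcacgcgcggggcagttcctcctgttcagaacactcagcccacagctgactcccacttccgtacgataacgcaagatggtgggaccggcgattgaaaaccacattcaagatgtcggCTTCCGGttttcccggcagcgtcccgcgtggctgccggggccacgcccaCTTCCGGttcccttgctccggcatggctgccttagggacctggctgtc
Mrpl35: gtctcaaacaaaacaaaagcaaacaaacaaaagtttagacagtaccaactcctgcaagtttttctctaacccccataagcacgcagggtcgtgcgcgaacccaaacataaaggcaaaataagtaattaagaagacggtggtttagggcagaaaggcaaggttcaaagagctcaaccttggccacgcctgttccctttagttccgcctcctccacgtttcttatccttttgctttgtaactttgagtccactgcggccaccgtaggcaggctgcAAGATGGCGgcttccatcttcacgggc

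Total counts were between 5400160 and 8472907 per library. Sdha had 313, 113 and 153 counts in Sdha-KO replicates 1 to 3, against 457, 295 and 567 in wildtype replicates 1 to 3, with all Sdha-KO libraries lower in CPM, counts scaled to library size, but no call over all genes (edgeR adjusted p = 1.00). Of 15 alveolar macrophage markers 13 had counts in all 6 libraries, and their summed level was 7119 to 8800 CPM in Sdha-KO and 8265 to 9584 CPM in wildtype libraries. Of these 15 markers 1, Ear1, was called lower (145.4, 139.5 and 112.2 CPM in Sdha-KO, against 585.4, 575.0 and 739.5 CPM in wildtype replicates 1 to 3, edgeR adjusted p = 0.0261). Its count is uncertain because strand use and the treatment of multiple matches were not stated. Siglecf, a marker of the sort, had 0, 213 and 304 counts in Sdha-KO replicates 1 to 3, against 841, 620 and 1038 in wildtype replicates 1 to 3. Summed markers of interstitial and monocyte-derived macrophages were at 79.5 to 189.7 CPM in Sdha-KO and 30.4 to 50.9 CPM in wildtype libraries, with Folr2 at 0 in all. T and NK cell markers summed to 72.3 to 196.9 CPM in Sdha-KO and 263.6 to 524.0 CPM in wildtype libraries. Conventional dendritic cell markers summed to 5.17, 85.7 and 199.9 CPM in Sdha-KO replicates 1 to 3, against 19.97, 15.8 and 38.6 CPM in wildtype replicates 1 to 3. Neutrophil markers summed to 79.8 to 169.2 CPM in Sdha-KO and 51.1 to 92.3 CPM in wildtype libraries, and epithelial markers to 118.4 to 700.2 CPM in Sdha-KO and 228.9 to 406.5 CPM in wildtype libraries. The part of these cells in the values was not tested. Both batch 1 libraries stood apart, with 5438 genes detected in Sdha-KO replicate 1 and 7893 in wildtype replicate 1, against 11383 to 13050 in the other 4 libraries, so results are given with and without them. Without them the sexes are unevenly spread, with 498 and 822 Xist counts in the Sdha-KO libraries, against 4608 and 6055 in the wildtype libraries. Ddx3y counts also differed (354 and 432, against 0 and 143), so genotype and sex cannot be told apart there. The batch 1 pair differed the other way, with 2683 Xist counts in Sdha-KO and 0 in wildtype, and 0 and 222 Ddx3y counts. Genotype and sex therefore cannot be told apart in the batch 1 ratios either, and the 6-library fits include that pair. Sdha-KO replicates 2 and 3 and wildtype replicate 3 had counts of both genes. Whether a library pooled mice of both sexes was not tested.

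Many mitoribosomal genes had no counts in the batch 1 libraries. In Sdha-KO libraries, 31, 3 and 1 of the 77 members had 0 counts in replicates 1 to 3, against 16, 0 and 0 in wildtype replicates 1 to 3. In Sdha-KO replicate 1 the zeros took 17 of 48 large and 14 of 29 small subunit genes. The 0 counts were spread over the whole table: of 9963 tested genes 48.9% had none in Sdha-KO replicate 1 and 26.4% had none in wildtype replicate 1, against 39.5% and 19.7% of the 76 tested members. In the other libraries the share of all tested genes at 0 was 8.32% and 1.29% in Sdha-KO replicates 2 and 3, against 1.51% and 0.351% in wildtype replicates 2 and 3. Both batch 1 libraries were at 0 in 13.2% of tested members, against 19.2% of all tested genes. With a count of 0, as many as 3 counts stay possible, equal to 0.25 CPM in Sdha-KO replicate 1 and 0.368 CPM in wildtype replicate 1, for counting error only. The members that were counted in Sdha-KO replicate 1 were often high, with 1904 counts for Mrpl33, 1513 for Mrps12 and 1500 for Mrpl52. The 10 highest members held 49.4%, 37.8% and 29.9% of all member counts in Sdha-KO replicates 1 to 3, against 49.7%, 37.8% and 33.7% in wildtype replicates 1 to 3. The batch 1 libraries of both genotypes were thus the most uneven in this measure. In all, 41 members had counts in every library, and 32 were at 0 in a batch 1 library and in no other.

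**Figure D1:**
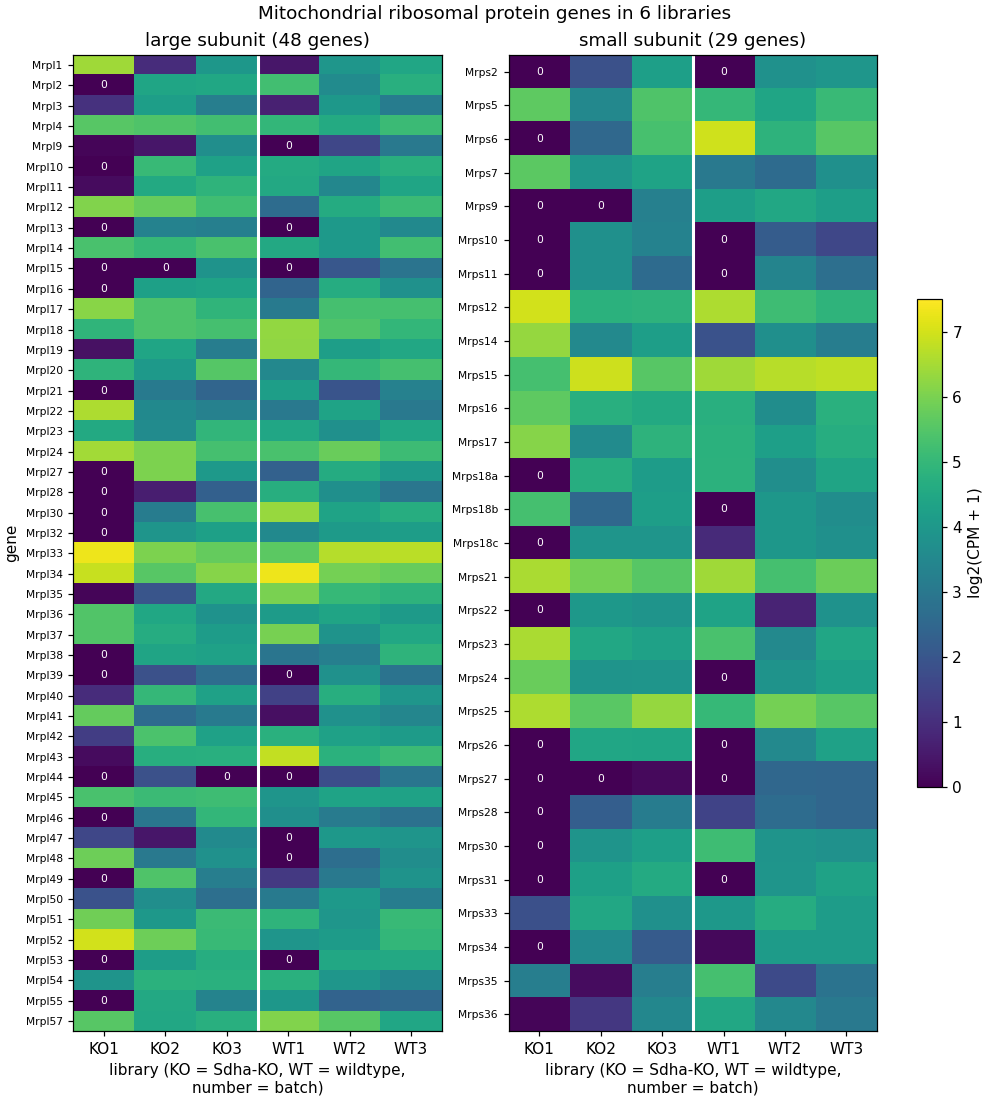
Level of each of the 77 genes in each library as log2(CPM + 1), large subunit on the left and small subunit on the right, with 0 printed where a library had no count. The zeros stand mostly in the columns KO1 (31 genes) and WT1 (16 genes), while the columns of batches 2 and 3 hold 3, 1, 0 and 0.

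Summed over its members, each subunit was at a similar level in both genotypes. CPM here and below are scaled by TMM composition factors, and the 3′ kit counts about 1 read per transcript whatever its length. Large subunit genes together had 1327, 1093 and 1055 CPM in Sdha-KO replicates 1 to 3, against 1198, 988 and 1035 CPM in wildtype replicates 1 to 3. The means were 1158 ± 147 CPM in Sdha-KO and 1073 ± 111 CPM in wildtype libraries (SD, n = 3 each). Small subunit genes together had 841, 542 and 605 CPM in Sdha-KO replicates 1 to 3, against 729, 546 and 631 CPM in wildtype replicates 1 to 3. The means were 663 ± 158 and 635 ± 91.3 CPM in Sdha-KO and wildtype libraries (SD, n = 3 each). For both subunits the genotypes overlapped and the difference of the means was below either SD, and in each genotype the batch 1 library was highest. These means and SDs ignore the batches. Within batches 1 to 3 the large subunit sum in Sdha-KO over wildtype was 1.11, 1.11 and 1.02, so higher in each. For the small subunit it was 1.15, 0.993 and 0.960. These directions were not tested.

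The balance of the subunits also overlapped between genotypes. The ratio of large to small subunit counts was 1.58, 2.02 and 1.74 in Sdha-KO replicates 1 to 3, against 1.64, 1.81 and 1.64 in wildtype replicates 1 to 3, with means of 1.78 ± 0.222 and 1.70 ± 0.0959. Within batches it was lower in Sdha-KO in batch 1 and higher in batches 2 and 3.

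As a share of all counts, the 77 genes held 0.307%, 0.163% and 0.153% in Sdha-KO replicates 1 to 3, against 0.191%, 0.119% and 0.163% in wildtype replicates 1 to 3. This share moves with the ribosomal RNA row Rn45s. Without the rows Rn45s, Rn4.5s and Lars2 it was 0.415%, 0.290% and 0.298% in Sdha-KO, against 0.350%, 0.287% and 0.301% in wildtype replicates 1 to 3. In that measure Sdha-KO over wildtype was 1.18 in batch 1, 1.01 in batch 2 and 0.991 in batch 3 for the 77 genes pooled. By subunit, batches 1 to 3 gave 1.17, 1.05 and 1.01 for the large and 1.22, 0.940 and 0.954 for the small. The pooled ratios near 1 in batches 2 and 3 thus join a higher large and a lower small subunit share. In bulk RNA, fewer cells of a type and less RNA per cell cannot be told apart.

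**Figure D2:**
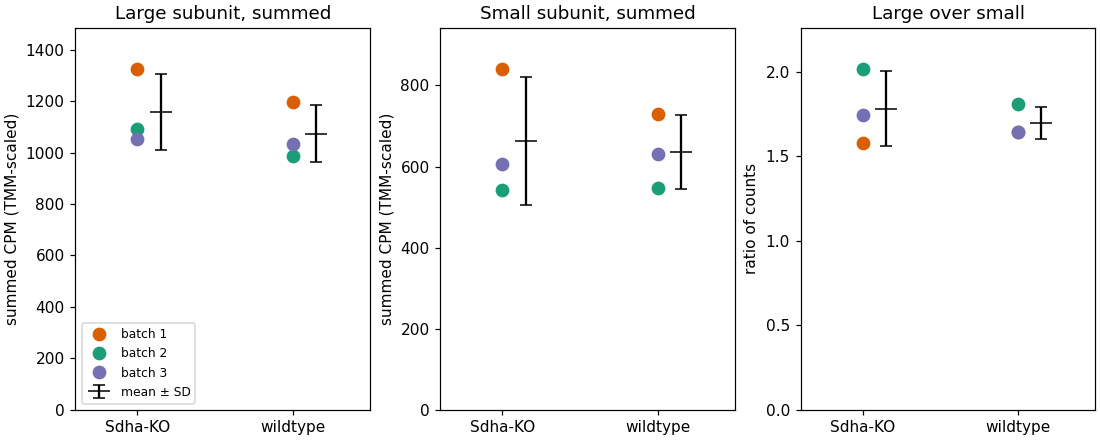
Summed CPM of the large and the small subunit genes and the ratio of their counts, each point 1 library coloured by batch, with the mean and SD of 3 libraries beside it. The genotypes overlap in all 3 panels, and the batch 1 points (1327 and 1198 CPM for the large subunit) are the highest of their genotype in both sums. In the ratio panel the wildtype points of batches 1 and 3 coincide at 1.64.

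No single member passed the test across all genes. Of 76 tested members 0 were called higher and 0 lower by edgeR (quasi-likelihood test, adjusted p under 0.05 by Benjamini-Hochberg), where 0.0502% of all 9963 tested genes (5 genes) were called. At an unadjusted p under 0.05 the count was 0 of 76 members, against 2.64% of all tested genes. DESeq2 called 0 members and 0.181% of all genes, with 1 member and 3.33% of all genes at an unadjusted p under 0.05. limma-voom called 0 members and 0.793% of all genes, with 2 members and 9.9% of all genes at an unadjusted p under 0.05. With a replicate block, edgeR found 0 called members and 0 called genes, with 0 members and 2.97% of all genes at an unadjusted p under 0.05. Without both batch 1 libraries it called 0 of 77 members and 0.251% of all genes. The remaining member, Mrps27, a small subunit protein with a pentatricopeptide repeat, had 0, 0 and 1 counts in Sdha-KO and 0, 21 and 36 counts in wildtype replicates 1 to 3 and fell under the filter on low counts. The filter asks for about 10 counts in at least 3 libraries of any genotype, so the members tested are not all members. Without both batch 1 libraries Mrps27 passed the filter. Its log2 fold change there was -5.54 (SE 2.55, edgeR adjusted p = 0.515), the largest of any member in that fit. The count of Mrps27 is uncertain because its exons overlap those of 6430562O15Rik.

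The spread limits what these tests can show. The median SE of a member's log2 fold change was 1.91 with 6 libraries and 0.638 without both batch 1 libraries. With 6 libraries 0 of 76 members had a 95% interval inside a 2-fold change in either direction (1.33% of all tested genes), and 5 had one inside 4-fold (13.6% of all tested genes). These were Mrpl33, Mrpl34, Mrps12, Mrps15 and Mrps21, all among the 6 members with the highest mean CPM. Without both batch 1 libraries, 1 of 77 members (Mrpl34, -0.80 to 0.88) lay inside 2-fold (7.43% of all tested genes) and 40 lay inside 4-fold (40.4% of all tested genes). For the other tested members the 6-library interval reached past 4-fold in at least 1 direction.

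**Figure D3:**
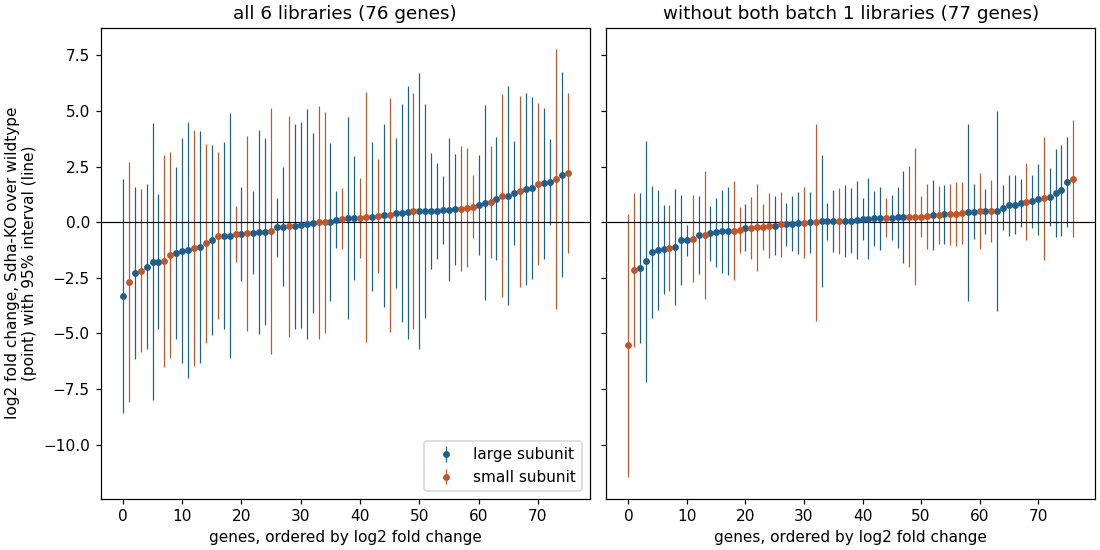
Fitted log2 fold change of each tested gene, Sdha-KO over wildtype, with its 95% interval, ordered by size, from all 6 libraries (left) and without both batch 1 libraries (right). Every member's interval crosses 0 on the left and all but that of Mrpl33 on the right, and the intervals on the right are narrower (median SE 0.638 against 1.91).

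With all 6 libraries and no block, positive and negative fitted changes were near equal in number in both subunits. Of 48 large subunit genes 25 were positive and 23 negative, with a median log2 fold change of 0.14 and middle values (quartiles) from -0.55 to 0.55. Of 28 tested small subunit genes 15 were positive and 13 negative, with a median of 0.17 and quartiles from -0.56 to 0.66. Over all tested genes 45.0% were positive and the median was -0.13. Both medians turned with the settings: with the replicate number as a block they were -0.23 and 0.003, beside -0.48 for all genes (16 of 48 large and 14 of 28 small subunit genes positive, against 37.3% of all genes), and without both batch 1 libraries 0.09 and 0.05, beside -0.02 (57.1% of members and 49.3% of all genes positive). With library totals alone as scaling the median of all genes moved to 0.05 and the subunits to 0.41 and 0.42. The subunit medians lay above that of all genes in each of 19 settings, and the large subunit lay above the small in 10 of them. The settings reuse the same libraries, so these tallies are no independent support. The gap to all genes was as small as 0.013 for the small subunit (without Sdha-KO replicate 1). For the large subunit it was as small as 0.049 (without Sdha-KO replicate 2).

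Subsets by origin and place in the particle gave no called member either. Large subunit proteins with a bacterial counterpart had a median log2 fold change of 0.14 (30 genes), and those found only in mitochondria had 0.15 (18 genes). In the small subunit, symbols on the bacterial list had 0.20 (16 genes) and the others, without Mrps36, had -0.19 (11 tested of 12). These 12 include Mrps30, Mrps18a and Mrps18b (log2 fold change -0.96, -0.51 and 1.19). Mrps18a and Mrps18b share a name stem with Mrps18c of the bacterial list. The 12 are therefore defined by that list alone and cannot be read as found only in mitochondria. Without both batch 1 libraries the medians were 0.07 and 0.15 in the large and 0.02 and 0.25 in the small subunit, so the order turned in the small subunit. With the block they were -0.23 and -0.27 in the large and 0.07 and -0.16 in the small subunit. The flexible stalk, which recruits translation factors (Mrpl10, Mrpl11, Mrpl12, Mrpl53 and Mrpl54), was positive in 2 of 5 with 6 libraries and in 4 of 5 without both batch 1 libraries. Proteins at the rim of the exit tunnel, where the new chain leaves (Mrpl17, Mrpl22, Mrpl23, Mrpl24, Mrpl45 and Mrpl47), were positive in 5 of 6 with 6 libraries and in 3 of 6 without both batch 1 libraries. The central protuberance, which contacts the small subunit, was positive in 5 of 7 with 6 libraries, 1 of 7 with the block and 7 of 7 without both batch 1 libraries. Structures place the proteins of Mrps30 and Mrps18a in the large subunit and that of Mrps36 in the 2-oxoglutarate dehydrogenase complex. With these moved or left out the medians were 0.06 for the large and 0.23 for the small subunit. Without both batch 1 libraries they were 0.12 and 0.02, and with the block -0.34 and 0.12, so the order differed between settings.

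The genotypes did not overlap in 9 of 76 tested members (11.8%), 5 with Sdha-KO above and 4 with Sdha-KO below, against 14.3% of all tested genes (5.04% above and 9.27% below). The members' share is thus near the background. None of the 9 was called (edgeR adjusted p = 1.00 each). Their direction is fixed by how they were chosen and is no sign of stability.

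Among those above, Mrpl45, whose protein sits at the tunnel exit and ties the ribosome to the inner membrane (chromosome 11, 97315716 to 97329920, mm10), had 39.5, 33.8 and 35.0 CPM in Sdha-KO, against 13.97, 19.5 and 18.8 CPM in wildtype replicates 1 to 3. It had the smallest spread within genotypes of all 77 members (SD of log2(CPM + 1) 0.194, median over members 1.62). Its log2 ratio of CPM + 1 was 1.43, 0.76 and 0.86 in batches 1 to 3, and the groups did not overlap. The fitted log2 fold change was 1.05 (SE 1.27, 95% interval -1.72 to 3.82), with 0.85 without both batch 1 libraries (adjusted p = 0.599). edgeR sets a gene's spread partly from that of other genes, and how this weighed on the result for Mrpl45 was not tested. Choosing genes without overlap also favours a small spread. An exact two-sided permutation test of any such gene alone cannot go below p = 0.1 with 3 against 3 libraries.

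Mrpl52, a large subunit protein found only in mitochondria (chromosome 14, 54426909 to 54429756), had 125, 56.9 and 32.0 CPM in Sdha-KO, against 14.1, 16.4 and 30.3 CPM in wildtype replicates 1 to 3. Its batch 3 values nearly met, and the batch 1 pair was farthest apart. Its log2 fold change was 1.82 (SE 0.883, unadjusted p = 0.0621), and 0.94 without both batch 1 libraries. Mrpl12, the stalk protein that also has been described to bind mitochondrial RNA polymerase, had 66.9, 53.2 and 35.6 CPM in Sdha-KO, against 5.27, 23.5 and 33.5 CPM in wildtype replicates 1 to 3. Here too the batch 3 libraries were close to each other (log2 fold change 1.32, SE 1.07). Exons of Mrpl12 overlap those of Gm16755, so its count is uncertain.

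Mrpl4, a core large subunit protein that lines the exit tunnel, had 45.9, 42.6 and 36.2 CPM in Sdha-KO, against 30.5, 22.9 and 33.7 CPM in wildtype replicates 1 to 3. This was the smallest of the 5 differences (log2 fold change 0.52, SE 0.99). Mrps7, a protein of the small subunit head, had 47.8, 14.3 and 19.2 CPM in Sdha-KO, against 7.11, 5.10 and 12.6 CPM in wildtype replicates 1 to 3. Its log2 fold change was 1.71 (SE 1.67), and its count is uncertain because its exons overlap those of Gga3 and Mif4gd.

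Among those below, Mrps9, a conserved protein of the small subunit head (chromosome 1, 42851233 to 42905683), had 0, 0 and 58 counts in Sdha-KO, against 141, 97 and 137 counts in wildtype replicates 1 to 3. In CPM this was 0, 0 and 8.64, against 17.3, 21.5 and 17.4, so the wildtype libraries were close together and the Sdha-KO libraries were not. The fitted log2 fold change was -2.70 (SE 2.48), and its adjusted p was 1.00 with edgeR and 0.0551 in DESeq2 with the replicate block, the smallest of any member in any setting. Mrpl28, a conserved large subunit protein (chromosome 17, 26123500 to 26126613), had 0, 3 and 26 counts in Sdha-KO, against 206, 55 and 53 counts in wildtype replicates 1 to 3. With 6 libraries it had the largest fitted change of the tested members (log2 fold change -3.31, SE 2.42).

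Mrpl35, another conserved large subunit protein, had 0.0834, 2.98 and 22.1 CPM in Sdha-KO, against 62.7, 31.5 and 27.8 CPM in wildtype replicates 1 to 3. The gap was over 8-fold in batches 1 and 2 and small in batch 3 (log2 fold change -2.28, SE 1.77). Mrpl43, found only in mitochondria, had 0.167, 25.1 and 25.3 CPM in Sdha-KO, against 112, 26.9 and 33.9 CPM in wildtype replicates 1 to 3. Batches 2 and 3 differed little, and the log2 fold change fell in size to -0.26 without both batch 1 libraries, against -1.78 with them. Exons of Mrpl43 overlap those of Twnk, so its count is uncertain.

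**Figure D4:**
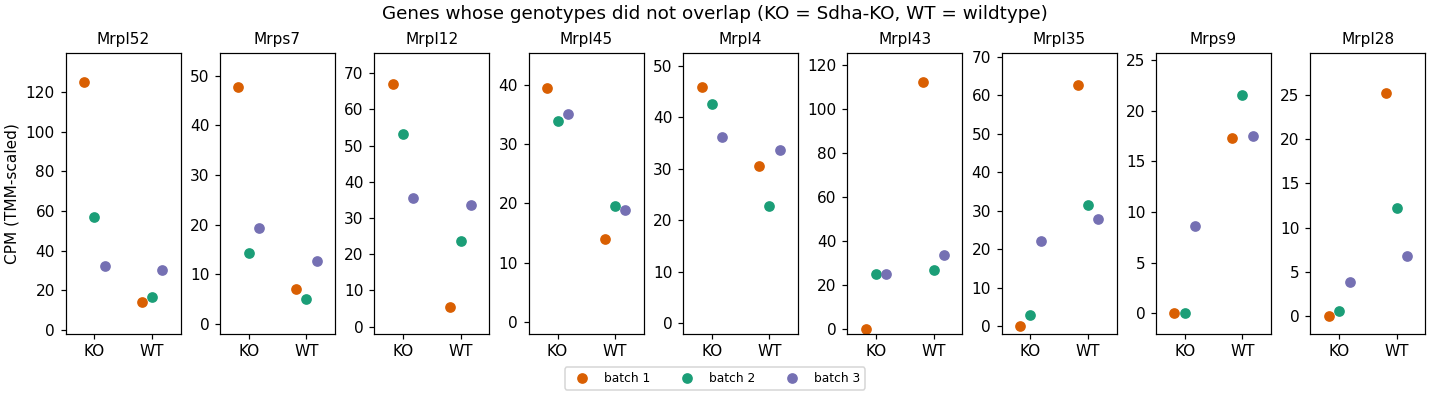
CPM of the 9 genes in which all 3 Sdha-KO libraries lay on 1 side of all 3 wildtype libraries, 1 point per library coloured by batch, Sdha-KO left of wildtype. Mrpl45 is the tightest, with 33.8 to 39.5 CPM in Sdha-KO and 13.97 to 19.5 CPM in wildtype libraries, while Mrpl52, Mrpl43 and Mrpl35 are spread by their batch 1 points.

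The members with the highest mean levels overlapped between genotypes in all 6 cases. Mrpl33, a small conserved large subunit protein, had 159, 64.5 and 51.7 CPM in Sdha-KO, against 48.2, 101 and 105 CPM in wildtype replicates 1 to 3. It was thus higher in Sdha-KO in batch 1 and lower in batches 2 and 3. Its log2 fold change was 0.12 with all libraries (SE 0.587) and -0.81 without both batch 1 libraries, where edgeR's adjusted p was 0.432. At an unadjusted p under 0.05 it was the 1 of 77 members in that fit, against 10.2% of all tested genes. The count of Mrpl33 is uncertain because its exons overlap those of Gm43809. Mrpl34 had 115, 46.3 and 69.3 CPM in Sdha-KO, against 157, 60.1 and 53.2 CPM in wildtype replicates 1 to 3 (log2 fold change -0.23, 95% interval -1.55 to 1.09). Its order differed between batches as well. Mrps15, which binds the small subunit RNA, had 38.1, 120 and 45.6 CPM in Sdha-KO, against 84.6, 102 and 109 CPM in wildtype replicates 1 to 3 (log2 fold change -0.54, SE 0.577).

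Mrps12, the protein of the decoding centre, had 126, 26.4 and 27.9 CPM in Sdha-KO, against 95.3, 35.3 and 28.6 CPM in wildtype replicates 1 to 3 (log2 fold change 0.18, SE 0.833). Mrps21 had 92.5, 60.3 and 46.2 CPM in Sdha-KO, against 85.3, 38.2 and 55.5 CPM in wildtype replicates 1 to 3 (log2 fold change 0.15, SE 0.636). Both were highest in the batch 1 library of each genotype. Mrps25 had 95.2, 46.5 and 79.0 CPM in Sdha-KO, against 31.2, 60.6 and 45.8 CPM in wildtype replicates 1 to 3 (log2 fold change 0.68, SE 0.65). Its exons overlap those of Nr2c2, so its count is uncertain.

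Among the named genes with large fitted changes that overlapped between genotypes, Mrps14, Mrpl48 and Mrps6 had smaller changes without both batch 1 libraries. Mrps14, a conserved protein of the small subunit head, had 77.9, 10.6 and 17.4 CPM in Sdha-KO, against 2.70, 12.2 and 8.02 CPM in wildtype replicates 1 to 3. Its log2 fold change was 2.21 (SE 1.65) and 0.48 without both batch 1 libraries. Mrpl48, of the central protuberance, had 56.2, 7.25 and 12.97 CPM in Sdha-KO, against 0, 5.55 and 11.8 CPM in wildtype replicates 1 to 3. Its change of 2.13 (SE 2.12) was 0.23 without both batch 1 libraries, and its exons overlap those of Rab6a. Mrps6 had 0, 4.83 and 38.6 CPM in Sdha-KO, against 123, 28.0 and 45.6 CPM in wildtype replicates 1 to 3. Its change of -2.18 (SE 1.66) was -0.75 without both batch 1 libraries, and its exons overlap those of Slc5a3. This did not hold for every member: Mrps10 had a log2 fold change of 1.94 with 6 libraries and 1.96 without both batch 1 libraries, and Mrpl44 had -1.78 and -1.76. Both had 0 counts in both batch 1 libraries and were named after their values were seen. Exons of Mrpl44 overlap those of Wdfy1, so its count is uncertain.

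Comparing the libraries of each batch shows how much of the spread came from batch 1. The log2 ratio of CPM + 1, Sdha-KO over wildtype, exceeded 2-fold in either direction in 49 of 77 members in batch 1, 30 in batch 2 and 10 in batch 3. As shares of members the first 2 were 63.6% and 39.0%, against 56.8% and 42.1% of all tested genes, and in batch 3 the share of all tested genes was 24.1%. The median ratio of the members was 0.00, -0.03 and 0.09 in batches 1 to 3, with 30, 38 and 43 members higher and 36, 39 and 34 lower. Sdha-KO was higher in all 3 batches in 10 of 76 tested members (13.2%, against 11.4% of all tested genes) and lower in all 3 in 8 (10.5%, against 19.9%). Besides the 5 genes above all wildtype libraries, the 10 were Mrpl14, Mrpl24, Mrpl51, Mrpl48 and Mrpl3. Besides the 4 genes below, the 8 were Mrps6, Mrps34, Mrpl50 and Mrps33, all named after their values were seen.

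**Figure D5:**
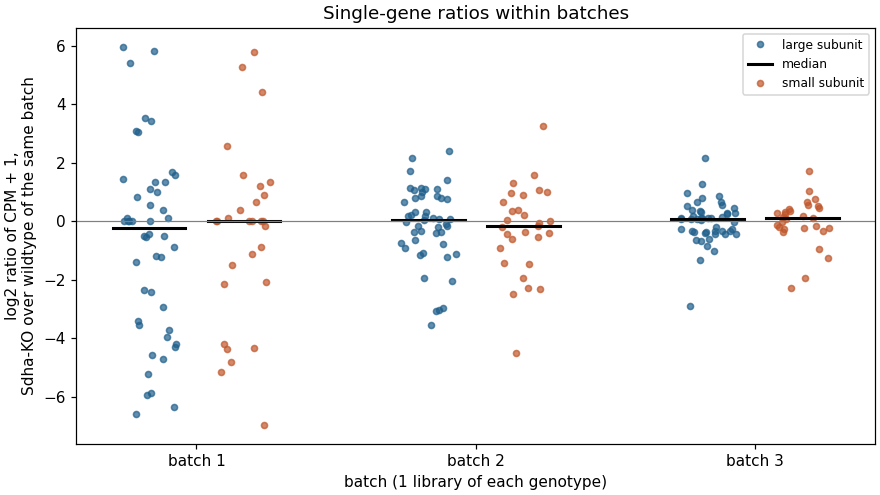
Log2 ratio of CPM + 1, Sdha-KO over the wildtype library of the same batch, for each of the 77 genes, with the median of each subunit as a black bar. The points spread over more than 12 log2 units in batch 1 and narrow to between -2.91 and 2.16 in batch 3, while the medians stay between -0.22 and 0.11.

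A sum over many genes is less variable than single genes by construction, so the following values are a description. The SD within genotypes of log2 summed CPM was 0.2 with 6 libraries and 0.0604 in batches 2 and 3, against medians over single members of 1.62 and 0.572. In batch 1, 20 members had counts in wildtype and none in Sdha-KO, 5 the reverse and 11 none in either.

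Other genes of mitochondrial translation, from lists of known members, also held no call. Of 5 listed subunits whose symbols do not follow the rule, 0 were called by edgeR, with 0 at an unadjusted p under 0.05, 3 positive and a median change of 0.22 on the log2 scale. Without both batch 1 libraries 0 were called, 1 was at an unadjusted p under 0.05 (against 10.2% of all genes), all 5 were positive and the median was 0.42. A further subunit, Ict1, the older symbol of Mrpl58, was added after its values were seen and had 0, 179 and 140 counts in Sdha-KO, against 0, 78 and 109 counts in wildtype replicates 1 to 3. Gadd45gip1, which sits near the tunnel exit and is also known as CRIF1, had 66.8, 56.5 and 55.6 CPM in Sdha-KO, against 31.1, 32.4 and 27.9 CPM in wildtype replicates 1 to 3. These groups did not overlap (log2 fold change 0.97, SE 0.788, adjusted p = 1.00; 0.91 without both batch 1 libraries, adjusted p = 0.471), and its count is uncertain. The others overlapped: Chchd1 averaged 45.7 ± 6.83 CPM in Sdha-KO and 33.6 ± 12.3 CPM in wildtype libraries, and Dap3, a GTP-binding protein of the small subunit, 28.9 ± 10.5 and 32.8 ± 22.0 CPM. Aurkaip1 averaged 42.4 ± 16.6 CPM in Sdha-KO and 36.4 ± 14.7 CPM in wildtype libraries, and Ptcd3, which binds messages, 10.01 ± 2.72 and 10.97 ± 6.004 CPM (SD, n = 3 each).

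Of 16 translation factors 14 were tested, 4 with a positive fold change and a median log2 fold change of -0.64 (-0.36 without both batch 1 libraries, 5 of 13 positive). The initiation factor gene Mtif2 had 106, 9.48 and 27.6 CPM in Sdha-KO, against 9.80, 32.8 and 17.4 CPM in wildtype replicates 1 to 3 (log2 fold change 1.25, SE 1.22), and the release factor gene Mtrf1 had 0, 8 and 3 counts against 53, 25 and 7. Of 30 assembly and RNA modification factors 22 were tested, 7 positive, with a median of -0.16 (-0.11 without both batch 1 libraries, 11 of 25 positive). Malsu1, which keeps the immature large subunit from joining the small one, had 69.7, 16.9 and 12.4 CPM in Sdha-KO, against 0, 9.32 and 15.5 CPM in wildtype replicates 1 to 3. Ybey, an endoribonuclease of the small subunit's maturation, had 2, 3 and 0 counts in Sdha-KO, against 124, 14 and 26 counts in wildtype replicates 1 to 3. Of 20 genes of mitochondrial transcription and RNA stability 14 were tested, 7 positive, with a median of 0.01 (0.34 without both batch 1 libraries, 9 of 15 positive). Slirp, which stabilises mitochondrial messages with Lrpprc, had 191, 37.7 and 46.8 CPM in Sdha-KO, against 58.2, 31.7 and 35.5 CPM in wildtype replicates 1 to 3, and the transcription factor gene Tfb2m had 0, 3 and 7 counts against 111, 19 and 30. In these 3 lists 0 genes were called and 0 were at an unadjusted p under 0.05 (edgeR, 6 libraries). In the same 3 lists Sdha-KO lay above wildtype in all libraries for C1qbp and below for Pdf, Ybey, Tfb2m and Hsd17b10, where 14.3% of all tested genes did not overlap in either direction. Exons of Malsu1, Ybey and Slirp overlap those of other genes, as do those of Chchd1, Dap3 and Ptcd3.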

How the data were processed

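The authors deposited a table of raw counts, with a row per gene symbol and a column per library. The labels' protocols name TRIzol extraction and the QuantSeq 3′ kit. The submitters' processing notes name Bowtie2, bedtools and mm10. Versions, annotation, strand use and treatment of multiple matches were not stated there. Exons of 32 of the 77 members overlap another GENCODE M21 gene, for 22 of them one with its own row, so those counts are uncertain.

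The whole table was fitted with edgeR 4.0.16 in R 4.3.3: filterByExpr (minimum count 10), TMM scaling, the robust quasi-likelihood test and genotype as the only term, with p-values adjusted over 9963 genes. The script was tested on simulated data with less spread than these libraries have, so that test does not show how it performs at their spread. SE is the log2 fold change divided by the root of F. Alternatives included DESeq2 1.42.0 and limma-voom (limma 3.58.1). Lists are described by counts and medians.

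Replicate numbers equal the labelled batch numbers and so pair the libraries. Deviations from group means correlated at 0.147, 0.135 and 0.103 for the same number and at -0.149 to 0.0874 otherwise. Such deviations cancel within a genotype, so these values depend on each other and are no test of the pairing. No 2 libraries were copies (chi-square over its degrees of freedom was 36.5 or more). The members, lists and the rule for named genes (called, highest mean CPM, no overlap, smallest p, largest change) were chosen with earlier results of these data known.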

Additional observations from a re-analysis of the deposited data

How the results depend on the processing

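In each of the 18 other settings 0 members were called higher or lower, while 0% to 3.01% of all genes were called. With the replicate block 0 members were called, as without it, so the block changed no member's call. Over all genes it gave 0 calls against 5 in edgeR, 40 against 18 in DESeq2, 3 against 79 in limma-voom and 324 against 27 without both batch 1 libraries. Of 29 named genes 21 kept their sign in each setting that could be fitted, and none passed the threshold. The other 8 changed sign, and the cause was not tested. With library totals alone the log2 fold changes were 0.07 for Dap3, 0.072 for Ptcd3 and 0.104 for Mrpl34. With the replicate block they were -0.017 for Mrps12 and -0.027 for Mrpl33, and in DESeq2 with the block -0.018 and -0.028. Without both batch 1 libraries they were -0.224 for Mrps12, -0.426 for Mtif2, -0.813 for Mrpl33, 0.04 for Mrpl34, 0.405 for Ptcd3 and 0.424 for Dap3. With the block as well they were -0.216 for Mrps12, -0.537 for Mtif2, -0.822 for Mrpl33, 0.017 for Mrpl34, 0.327 for Dap3 and 0.433 for Ptcd3. Leaving out 1 library at a time gave -0.971 to 0.91 for Mrps12, -0.537 to 0.396 for Mrpl33, -0.165 to 0.497 for Mrps21, -0.106 to 1.795 for Mtif2, -0.072 to 0.501 for Aurkaip1, -0.646 to 0.438 for Mrpl34, -0.47 to 0.348 for Ptcd3 and -0.456 to 0.518 for Dap3. The alternatives that combine DESeq2 or limma-voom with the block were chosen after seeing the data. Members at 0 were most frequent in batch 1 (31 in the Sdha-KO library and 16 in the wildtype library), although these libraries had the largest totals, and the cause was not tested.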
